A study of Mus musculus with 6 samples.

Results

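Amphiregulin (Areg), 6 further ligands of the EGF family (Ereg, Hbegf, Tgfa, Egf, Btc and Nrg1) and the EGF receptor (Egfr) were followed across 6 arrays of mouse whole lung. The 8 genes were taken as a named family, and their probes were those whose RefSeq accession maps to one of the 8 symbols. This gave 10 probes of the 26056 that could be named, or 8 genes of 19752. The family was chosen on the levels and the HRF to PBS ratios of these same arrays, so every level and ratio of the 8 genes below is a description and carries no test.

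All mice were C57BL/6 by label and received their challenge through the nose. The 6 groups hold 1 array each: wild type (WT) given PBS, WT given mouse histamine-releasing factor (HRF, labelled mHRF or mHRF-His), FcRg KO (FcRg-/-) given PBS, FcRg KO given HRF, FceRIa KO (FceRIa-/-) given PBS and FceRIa KO given HRF. HRF is a secreted protein that can bind IgE, FcRg is a signalling chain that several Fc receptors have in common, and FceRIa is the chain of the mast cell receptor that holds IgE. Age, dose, time after challenge and pooling of mice are not given in the sources used here. With 1 array per group, the spread between mice of a group is unknown, and this limits the precision of every value.

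Each array held 59305 spots other than controls, of which between 67.5% and 79.6% were well above background, and none was saturated. The lung label is borne out by its defining markers, since 10 of 10 alveolar type 2, 7 of 7 alveolar type 1 and 9 of 9 airway epithelial marker genes were well above background on all 6 arrays. The knockout labels are not borne out by their target genes. Fcer1g lay between 3.93 and 4.61 on every array, and Fcer1a stood at -0.90 and -1.16 on the arrays labelled FceRIa KO against -4.48 and -4.19 in WT. Whether those probes lie in the deleted parts is not known here, so the groups are named by label. Here and below a level is the log2 signal with 0 at the 75th percentile of the array, and a ratio is the log2 level on the HRF array minus that on the PBS array of the same label. Across all genes, 404 of 17432 (2.32%) were higher with HRF in WT by 2-fold or more and 265 (1.52%) were lower by as much. Scaling on the median turned this split into 614 and 106. Normexp background correction together with quantile normalization, with no lower limit set for dim signals, gave 303 and 35. On the pair labelled FcRg KO, 127 of 16593 (0.765%) were higher and 195 (1.18%) lower, and on the pair labelled FceRIa KO 242 of 16315 (1.48%) were higher and 73 (0.447%) lower.

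Ligands of this family are made as precursors anchored in the cell membrane. Metalloproteases such as ADAM17 cut them free, and the soluble ligand makes EGF receptors pair and signal through ERK. Amphiregulin, epiregulin (Ereg), HB-EGF (Hbegf), TGF-alpha (Tgfa), EGF (Egf) and betacellulin (Btc) bind the EGF receptor itself, whereas neuregulin-1 (Nrg1) binds the related receptors ErbB3 and ErbB4. In the lung, amphiregulin comes from epithelial cells and from leukocytes such as type 2 innate lymphoid cells (ILC2), regulatory T cells, mast cells and basophils, and is known for its part in tissue repair and in mucous change of the airway.

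The genes Epgn, Ereg, Areg and Btc lie next to each other on mouse chromosome 5 in that order, with no other protein-coding gene between them in the RefSeq table of assembly GRCm38.p6. Promoter sequences were matched for 5 of the 8 genes. Those of Areg and Btc are shown because these neighbours had opposite ratios in WT. Both are the 250 bases before the annotated start from RefSeq, GRCm38.p6, read 5′ to 3′ on the strand of the gene: chr5:91139349-91139598, plus strand, for Areg and chr5:91402995-91403244, minus strand, for Btc. Both strands were searched for 6 motifs, and capitals mark a match to any of the first 5. The cAMP response element, or CRE, was searched as TGACGTCA. For AP-1 the letters were TGANTCA. The STAT motif was written as TTCNNNGAA and the TATA box as TATAAA, and the NF-kB motif was searched by its usual consensus. The last was the core of the xenobiotic response element (XRE), GCGTG, a short run left in lower case.
Areg: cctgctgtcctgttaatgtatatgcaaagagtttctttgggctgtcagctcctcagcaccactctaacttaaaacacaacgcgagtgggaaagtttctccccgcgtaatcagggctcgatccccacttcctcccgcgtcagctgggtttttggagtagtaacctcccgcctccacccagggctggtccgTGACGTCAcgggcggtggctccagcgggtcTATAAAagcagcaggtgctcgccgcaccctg
Btc: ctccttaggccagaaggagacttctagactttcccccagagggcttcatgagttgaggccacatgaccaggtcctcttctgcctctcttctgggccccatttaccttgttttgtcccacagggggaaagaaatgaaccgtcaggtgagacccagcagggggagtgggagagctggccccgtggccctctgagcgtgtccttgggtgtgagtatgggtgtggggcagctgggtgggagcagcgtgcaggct
The Areg window holds 1 CRE, at bases 61 to 54 before the start, and 1 TATA box, at bases 31 to 26, which do not overlap. Among 32817 windows of the same length, 1.55% hold this CRE, 12.4% the TATA box, 6.75% the AP-1 motif, 7.01% the STAT motif, 7.25% the NF-kB motif and 28.1% the XRE core. The Btc window holds none of the first 5 motifs and 2 XRE cores, at bases 59 to 55 and 11 to 7 before the start, and the Areg window holds no XRE core. These are descriptions of the sequence, and no factor was measured at either gene.

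Amphiregulin was the member whose HRF array stood above its PBS array under every label, by nearly the same amount with the scaling used here. Its PBS levels were -2.05 in WT, -2.62 under the FcRg KO label and -2.95 under the FceRIa KO label. The HRF levels were -1.27, -1.79 and -2.10 in the same order. Each label thus shows a higher Areg level with HRF, and under both challenges WT was highest and the FceRIa KO label lowest. The ratios were 0.78 in WT (1.72-fold), 0.83 on the pair labelled FcRg KO (1.78-fold) and 0.84 on the pair labelled FceRIa KO (1.79-fold). The groups overlapped narrowly, because the highest PBS level, in WT, lay above the lowest HRF level, that of the FceRIa KO label. Of the 8 genes, 1, Areg, was at least 1.5-fold higher with HRF under all 3 labels, as were 49 of all 17601 genes (0.278%). It was also the 1 member above its PBS array under all 3 labels at any size, against 16.5% of all genes. No member lay below its PBS array under all 3 labels, as 20.6% of all genes did.

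The error of a single spot can be read from probes that the array carries in several copies. Among the 23 to 33 such probes within 0.5 of the Areg level on an array, the median SD over copies was between 0.073 and 0.096, well under the Areg ratios. This SD covers spot to spot error within an array and says nothing of differences between mice. In the order of the 6 Areg levels, the neighbours WT PBS and the HRF array labelled FceRIa KO were 0.049 apart, less than this SD, and all other neighbours were farther apart. Against WT, Areg differed by -0.56 and -0.89 on the PBS arrays labelled FcRg KO and FceRIa KO and by -0.52 and -0.83 on the HRF arrays. These comparisons share the WT arrays. The range of the 3 PBS levels, 0.89, was about as large as the HRF ratios.

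**Figure D1:**
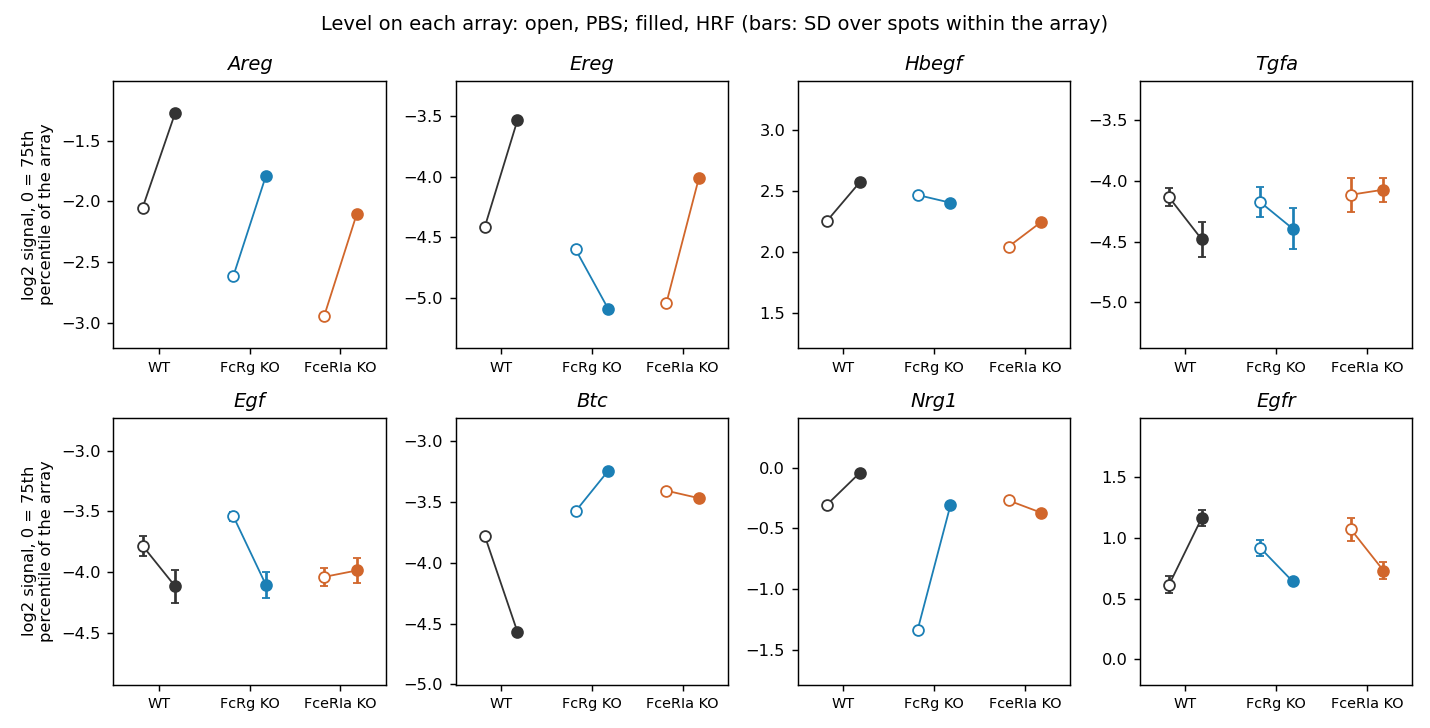
Level of each of the 8 genes on each of the 6 arrays, in log2 signal with 0 at the 75th percentile of the array; open points are PBS, filled points HRF, lines join arrays of 1 label, and bars are the SD over 7 to 10 copies of the probe within an array where copies exist. All panels span the same log2 distance, and the 3 Areg lines run upward side by side while those of Ereg, Btc and Egfr run in different directions.

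Epiregulin, a ligand of the EGF receptor and of ErbB4 and a close relative of amphiregulin, followed Areg in WT and under the FceRIa KO label but not under the FcRg KO label. Its levels, PBS then HRF, were -4.42 and -3.54 in WT, -4.60 and -5.09 under the FcRg KO label, and -5.04 and -4.01 under the FceRIa KO label. The WT HRF array held the highest Ereg level and the HRF array labelled FcRg KO the lowest. The ratio was 0.88 (1.84-fold) in WT and 1.04 (2.05-fold) under the FceRIa KO label, the single member at least 2-fold higher there. On the pair labelled FcRg KO the ratio was -0.49, so that the HRF array labelled FcRg KO stood 1.55 below WT HRF on the log2 scale, where 3.01% of all genes were at least 2-fold lower. Ereg was dim, and with normexp its ratio under the FceRIa KO label was 0.51. Copies of probes at its level had a median SD between 0.11 and 0.23.

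HB-EGF, a ligand made by macrophages and epithelium that also acts as an anchored growth factor, varied little between arrays. Hbegf stood at 2.25 and 2.57 in WT, 2.47 and 2.40 under the FcRg KO label and 2.04 and 2.25 under the FceRIa KO label, PBS first. Its ratios, 0.32, -0.06 and 0.20, were smaller than the range of its PBS levels, 0.43.

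TGF-alpha and EGF, the prototype ligands of the receptor, were each measured by a probe with 10 copies on every array. Copies marked as outliers were left out, which left 9 or 10 copies for Tgfa and between 7 and 10 for Egf. Tgfa was -4.14 ± 0.074 on WT PBS and -4.48 ± 0.14 on WT HRF (SD over copies). Under the FcRg KO label it was -4.17 ± 0.12 and -4.39 ± 0.17, and under the FceRIa KO label -4.11 ± 0.14 and -4.07 ± 0.10. All 6 Tgfa levels fell within 0.41, and 4 of the 5 gaps between neighbouring levels were under the SD over copies. Genes at the level of Tgfa had a median ratio of -0.25 in WT, beside -0.35 for Tgfa itself.

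Egf showed its lowest ratio under the FcRg KO label. There it was -3.54 ± 0.038 with PBS and -4.11 ± 0.11 with HRF (SD over 7 and 10 copies), a ratio of -0.57. In WT it was -3.78 ± 0.083 and -4.12 ± 0.14, a ratio of -0.34 beside a median of -0.23 for genes at that level. Under the FceRIa KO label the levels, -4.04 ± 0.075 and -3.99 ± 0.11, differed by less than the SD over copies. The PBS array labelled FcRg KO thus held the highest Egf level, and the other 5 arrays lay between -3.78 and -4.12. That pair also differed in the summed level of salivary gland markers, by -0.54, against 0.07 in WT and 0.44 under the FceRIa KO label. In that list of 7 genes, 4 were well above background on all arrays, and its part in the Egf values was not tested.

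Betacellulin was lowest on the WT HRF array. Btc stood at -3.78 and -4.57 in WT, -3.58 and -3.24 under the FcRg KO label and -3.41 and -3.47 under the FceRIa KO label. Its ratio of -0.79 in WT, 1.73-fold lower, was the lowest of any member, and the ratios under the other labels were 0.33 and -0.06. Dim genes as a whole ran lower on WT HRF than on WT PBS: the median ratio of genes at the Btc level was -0.21 in WT, and 0.03 and -0.03 under the other labels. With normexp the Btc ratio in WT was -0.26. On the HRF arrays Btc was 1.33 above WT under the FcRg KO label and over 2-fold above WT under the FceRIa KO label, the single member so far above WT in each, where 0.946% and 1.0% of all genes were. No member was 2-fold below WT under the FceRIa KO label, with HRF (2.29% of all genes) or with PBS (2.88%), and none was 2-fold above WT on the PBS array labelled FcRg KO (0.679%).

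Neuregulin-1, which maintains alveolar and airway epithelium through ErbB3 and ErbB4, differed on 1 array. Under the FcRg KO label with PBS, Nrg1 was -1.33, while the other 5 arrays lay between -0.37 and -0.04. Its ratio on that pair was 1.02 (2.03-fold), the single member at least 2-fold higher there, and the ratios were 0.26 in WT and -0.10 under the FceRIa KO label. The HRF array of that pair, at -0.31, was level with WT PBS at -0.31, and the pair differed through its PBS array, which was 1.03 below WT PBS, where 3.04% of all genes were at least 2-fold lower. Scaling on the median gave a ratio of 0.98, and normexp one of 0.93, just under 2-fold.

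The receptor itself went in opposite directions between WT and the other labels, by amounts under 2-fold. The probe for the full-length Egfr transcript, with 9 or 10 copies kept per array, read 0.62 ± 0.070 on WT PBS and 1.17 ± 0.064 on WT HRF. Under the FcRg KO label it read 0.92 ± 0.066 and 0.64 ± 0.025, and under the FceRIa KO label 1.07 ± 0.094 and 0.73 ± 0.070. In WT the HRF array was therefore the higher, and under both other labels the PBS array was. The ratios were 0.55, -0.28 and -0.34, each with an SE over copies between 0.024 and 0.037. No neighbouring pair in the order of the 6 levels was closer than the SD over copies of the higher one, but 2 pairs were closer than the SD of the lower one. These were WT HRF and FceRIa KO label PBS, 0.0929 apart with an SD of 0.0937, and FcRg KO label HRF and WT PBS, 0.027 apart with an SD of 0.070.

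A pair of further Egfr probes, both for a shorter transcript that encodes a truncated receptor, gave ratios between -0.16 and 0.045 under every label. In WT they gave 0.045 and -0.0041, against 0.55 with the full-length probe. With the median over the 3 probes as the Egfr ratio, WT was at -0.0041 and the FceRIa KO label at 0.013, so the opposite directions rest on the full-length probe. Whether the probes differ through the transcripts they detect was not tested.

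**Figure D2:**
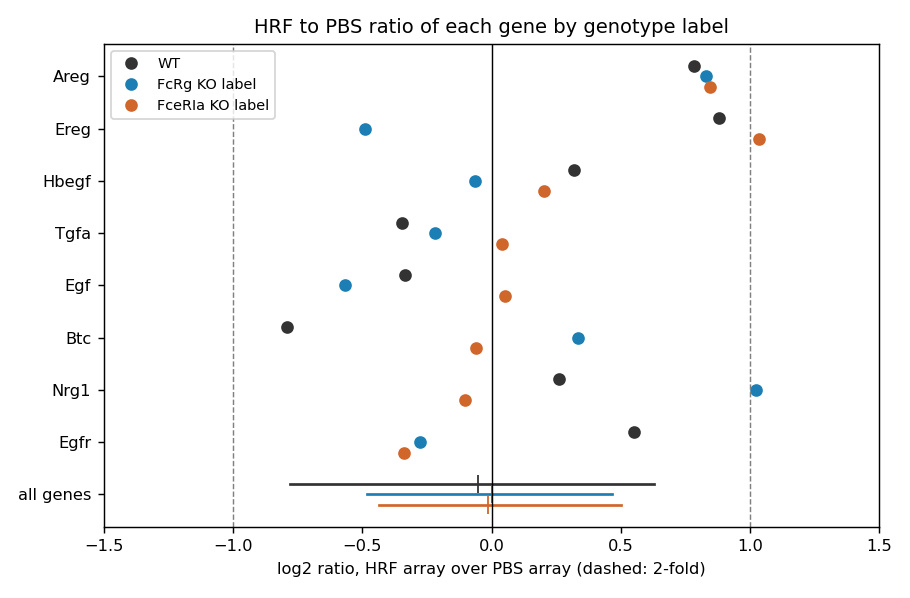
Ratio of the HRF array to the PBS array (log2) for each of the 8 genes under each label, with the dashed lines at 2-fold; the bottom row gives the median (tick) and the 5th to 95th percentiles (line) of all genes compared. The 3 Areg points lie together near 0.8, whereas the points of Ereg, Btc, Nrg1 and Egfr are spread out.

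Counted over the family, 0 of 8 genes were at least 2-fold higher or lower in WT, 1 was higher under the FcRg KO label (Nrg1) and 1 under the FceRIa KO label (Ereg), and 0 were lower under either. Of all genes, 2.32% were 2-fold higher and 1.52% lower in WT. The shares were 0.765% and 1.18% under the FcRg KO label and 1.48% and 0.447% under the FceRIa KO label. At 1.5-fold, 2 were higher in WT (Areg and Ereg), where 5.27% of all genes were, and 1 was lower (Btc), where 7.7% were. Under the FcRg KO label 2 were higher at 1.5-fold (Areg and Nrg1) against 3.06% of all genes, and under the FceRIa KO label 2 (Areg and Ereg) against 3.69%. None was 1.5-fold lower under either of these labels, where 3.47% and 2.02% of all genes were. For no member did all 3 HRF levels lie above, or all below, the 3 PBS levels, an arrangement seen in 5.95% and 7.32% of all genes.

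Genes with a level pattern most like that of Areg were looked for among 1519 other genes that were well above background on all 6 arrays and spanned at least 1 on the log2 scale. By Pearson's r over the 6 arrays these were Gpr176, an orphan receptor (0.98), Stra8, a retinoic acid induced gene (0.96), Cfi, which inactivates complement (0.95), Reg1, a secreted lectin (0.94), and Cd209e, a C-type lectin (0.94). With 6 arrays, 24 genes had an r above 0.9. Cd209e shared the order of Areg only in part, and its ratios of 5.07, 2.05 and 2.95 were much larger.

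Other members of the ErbB family were mostly low and varied between labels. Epgn encodes epigen, the remaining ligand of the chromosome 5 cluster. It stood at -3.36 on WT PBS and between -5.14 and -4.38 on the other 5 arrays, which gave ratios of -1.21 in WT, 0.75 under the FcRg KO label and 0.11 under the FceRIa KO label. In WT, then, Areg and Ereg were higher with HRF while their neighbours Epgn and Btc were lower. All but Areg of these were dim, and genes at the level of Epgn had a median ratio of -0.27 in WT. The other labels did not repeat this split: Ereg, Epgn and Btc gave -0.49, 0.75 and 0.33 under the FcRg KO label. Under the FceRIa KO label they gave 1.04, 0.11 and -0.06. Erbb2, the receptor without a ligand of its own, gave -0.29, 0.03 and 0.07, and Erbb3, a neuregulin receptor, -0.53, 0.13 and 0.15. Nrg2 gave -0.27, -0.27 and -0.16, and Nrg3 and Erbb4 were not well above background on any array.

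Neuregulin-4 (Nrg4), a ligand of ErbB4 secreted by brown fat, had ratios of the same sign as fat markers under both KO labels but not in WT. Nrg4 levels, PBS then HRF, were -1.66 and -2.03 in WT, -1.57 and -2.31 under the FcRg KO label and -1.99 and -1.18 under the FceRIa KO label. Its ratios were -0.37, -0.74 and 0.81. The summed level of 10 adipocyte markers had ratios of 0.06, -1.61 and 1.27, and that of Ucp1, the brown fat uncoupling protein, was -0.16, -6.44 and 2.77. On the PBS arrays the adipocyte sum ran from 5.14 to 6.68 and on the HRF arrays from 5.07 to 6.41, with 8 of 10 markers well above background on all arrays. The part of fat in the lung samples in these values was not tested. In whole tissue, fewer cells of a type and less RNA per cell cannot be told apart.

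Pathway genes outside the family were compared in 6 lists, and the average HRF effect over the 3 labels was tested with limma across all 17601 genes. No gene passed (0 higher and 0 lower, each 0.0% of all genes), while 1552 had an unadjusted p under 0.05; the smallest adjusted p was 0.557. The residual of this fit is the difference of response between labels and not the spread between mice. The counts and medians that follow are therefore descriptions, to be set against the shares of all genes given above.

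Among 15 proteases and partners of ligand release, the sheddase Adam17 itself hardly differed, at 0.020, 0.048 and -0.11. Timp1, a metalloprotease inhibitor, had by far the highest ratios of that list, 3.24 in WT, 0.90 under the FcRg KO label and 1.26 under the FceRIa KO label (limma mean 1.80, SE 0.55, adjusted p = 0.557, higher under 3 of 3 labels). Adam8, a leukocyte metalloprotease, followed with 1.14, 0.49 and 0.35, and Adam9 with 0.45 in WT. The list medians were 0.024, 0.016 and 0.081 beside medians of all genes of -0.05, 0.0012 and -0.01.

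Of 20 feedback inhibitors of EGF receptor and ERK signalling, none was at least 2-fold higher or lower under any label. Errfi1, which binds and blocks the receptor kinase, had ratios of 0.27, 0.28 and 0.77, and Spry4, an inhibitor of the ERK cascade, of 0.61, 0.32 and 0.41 (limma mean 0.45, SE 0.091, adjusted p = 0.557, higher under 3 of 3 labels). Dusp4, an ERK phosphatase, gave -0.67, -0.20 and -0.18. The 25 adaptors and kinases below the receptor lay close to 0, with medians of 0.027, 0.0071 and -0.05 and none at 2-fold; Stat3 had the highest WT ratio among them, 0.57.

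ERK-responsive and immediate early genes differed between labels far more. In WT, 7 of 20 were at least 2-fold higher and the list median was 0.63. Under the FcRg KO label the median was -0.0073, with 1 of 20 higher and 2 lower, and under the FceRIa KO label 0.43, with 1 of 19 higher. Serpinb2, a protease inhibitor of activated macrophages, gave 2.53, 1.18 and 0.24. Ptgs2, the inducible cyclooxygenase, gave 1.79, 0.0030 and 0.78, and Myc 1.63, 0.25 and 0.55. Areg gave 0.78, 0.83 and 0.84. Under the FcRg KO label the ratios of the list ran from 1.18 for Serpinb2 down to -1.48 for both Fos and Egr1, so these genes do not stand for the list. The PBS array of that label held the highest PBS levels of Fos and Egr1, 2.17 and 3.25, against 1.08 and 2.51 in WT and 0.19 and 1.39 under the FceRIa KO label. With HRF, Fos and Egr1 stood at 0.69 and 1.77 there, 1.16 and 2.88 in WT, and 0.65 and 2.17 under the FceRIa KO label.

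CREB target genes were examined because of the CRE in the Areg window. Their medians were -0.33 in WT, -0.07 under the FcRg KO label and 0.26 under the FceRIa KO label, and 0 of 11 were at least 2-fold higher under any label. Pck1, a gluconeogenic enzyme also made in fat, was at -1.44, -1.85 and 0.26. Rgs2 was at -0.52, -0.48 and -0.53, and the clock gene Per1 at 0.43, 0.60 and 0.62. No change of CREB itself was measured.

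**Figure D3:**
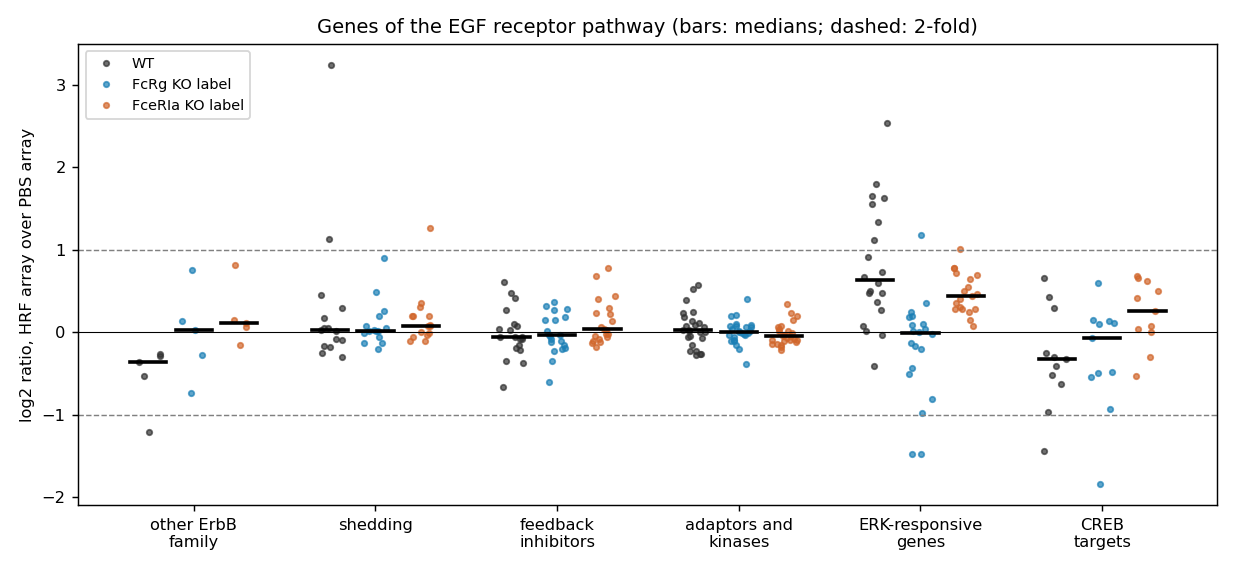
Ratio of the HRF array to the PBS array (log2) of each gene in 6 pathway lists under each label; bars are list medians and dashed lines mark 2-fold. The ERK-responsive genes have medians of 0.63 in WT and 0.43 under the FceRIa KO label and of -0.0073 under the FcRg KO label, while adaptors and kinases stay near 0.

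Markers of cells that can make amphiregulin were read beside it. The summed level of no list of them had a ratio as high as Areg under all 3 labels, but whether these cells account for the Areg ratios was not tested. Summed levels are carried by the most abundant markers of a list, so counts and medians of single genes are given with them. The summed level of 12 ILC2 and type 2 lymphocyte markers had ratios of 0.61 in WT, 0.06 under the FcRg KO label and 0.03 under the FceRIa KO label, and the list medians were 0.78, 0.35 and 0.17. At least 2-fold higher were 5 of 12 in WT, 1 of 12 under the FcRg KO label and 0 of 12 under the FceRIa KO label. Il13, a type 2 cytokine, had the highest ratio of the list in WT and under the FcRg KO label. Its PBS signal was dim, so its ratios are lower bounds: at least 5.73 in WT, 2.29 under the FcRg KO label and 0.30 under the FceRIa KO label. Under that last label its levels before the dim side was raised were -8.70 with PBS and -6.11 with HRF. The 0 of 12 counted there therefore does not show that Il13 was less than 2-fold higher. Il5 gave 3.93, 0.26 and 0.90. The sum ran from 2.46 to 2.74 on PBS arrays and from 2.49 to 3.28 on HRF arrays, and 10 of 12 markers were well above background on all arrays. For 8 regulatory T cell markers the summed ratios were 0.66, -0.51 and 0.11, while the list medians were 1.45, 0.051 and 0.11. On WT PBS most of that sum was Lrrc32, a surface carrier of latent TGF-beta, whose ratios were 0.37, -0.68 and 0.12. Foxp3, the defining factor of these cells, gave 1.65, 0.22 and 0.81. The checkpoint receptor Ctla4 gave 2.33 in WT, 1.03 under the FcRg KO label and at least 0.56 under the FceRIa KO label, where its PBS signal was dim. Of the markers compared, 5 of 8 were at least 2-fold higher in WT, 1 of 7 under the FcRg KO label and 0 of 7 under the FceRIa KO label. Before the dim side was raised, Ctla4 stood at -7.92 with PBS and -5.85 with HRF under that last label. The 0 of 7 therefore does not show that Ctla4 was less than 2-fold higher there. The sum of the 8 markers ran from 3.66 to 3.79 with PBS and from 3.28 to 4.32 with HRF, and 6 of 8 were well above background throughout.

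Mast cell and basophil markers gave summed ratios of 0.08, 0.22 and 0.10 over 12 genes, of which 8 were well above background on all arrays. The list medians were -0.24, 0.11 and 0.048, so that sum and median differed in sign in WT. At 2-fold, 0 of 10 were higher and 0 lower in WT. Under the FcRg KO label 2 of 9 were higher and 1 lower, and under the FceRIa KO label 0 of 10 were higher and 1 lower. Hdc, which makes histamine, and Kit, the stem cell factor receptor, were the most abundant of the list, with 0.10 and 0.20 in WT. The mast cell proteases compared in WT were lower there, with Cpa3 at -0.60, -0.59 and 0.18 and Mcpt4 at -0.70, -1.23 and 0.40. Cma1 was at -0.39, -0.64 and -0.042, and Tpsb2 at -0.42, 0.34 and 0.21. Mcpt2, well above background on 3 arrays, was at -0.79 in WT and, from a dim PBS signal, at 1.15 under the FcRg KO label. Mcpt1 was well above background on 1 array, at -2.53 with PBS under the FceRIa KO label. Its ratio under that label was -3.70 or lower. The sum of the list ran from 4.84 to 4.93 with PBS and from 4.94 to 5.15 with HRF. Ms4a2, which encodes the beta subunit of their IgE receptor, was well above background on none of the 6 arrays. The basophil protease Mcpt8 gave 0.25, 2.12 and 0.06. Alveolar type 2 cell markers gave summed ratios of 0.11, 0.25 and 0.31 and list medians of 0.059, 0.21 and 0.20. Under each label 0 of 10 were 2-fold higher or lower. The sums lay between 9.92 and 10.02 on PBS and between 10.03 and 10.27 on HRF arrays. Mucous and goblet cell markers, whose induction in airways is known to involve the EGF receptor, gave summed ratios of 1.49, 1.29 and 0.02. The list medians were 1.67, 1.24 and 0.05, and 7 of 10, 5 of 10 and 2 of 9 were at least 2-fold higher. Under the FceRIa KO label Slc26a4 gave 3.60 and Itln1 1.05, while the abundant Clca1 and Muc5b gave -0.41 and -0.37. The sums lay between 5.72 and 6.11 on PBS and between 5.73 and 7.56 on HRF arrays. The part of any of these cell types in the Areg values was not tested.

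**Figure D4:**
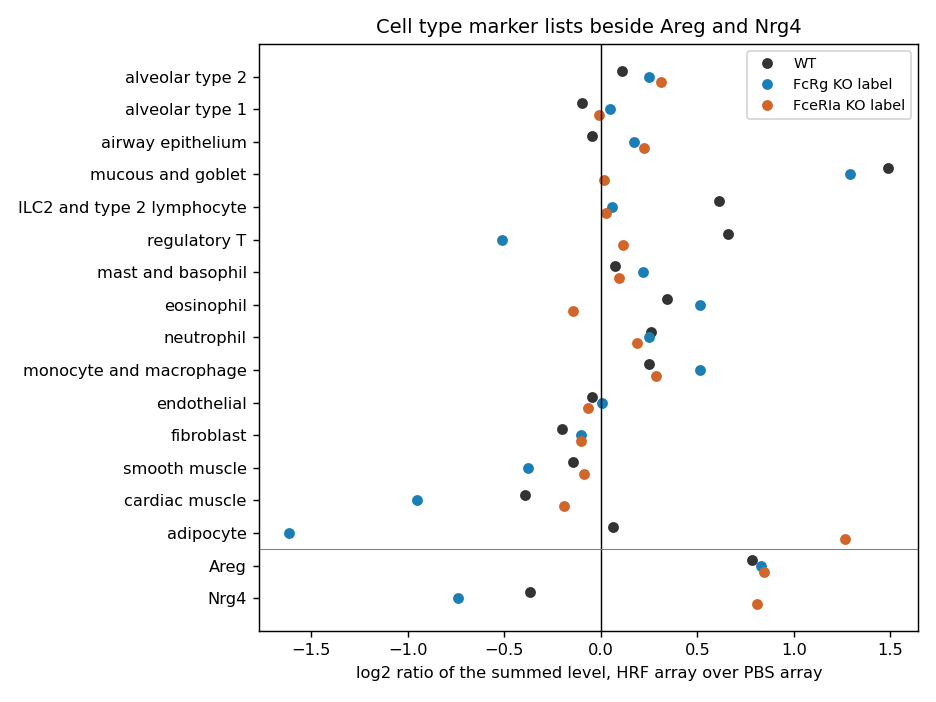
Ratio of the summed level (log2, HRF array over PBS array) of 15 cell type marker lists under each label, with Areg and Nrg4 in the lowest rows. The Areg points lie between 0.78 and 0.84, the adipocyte points run from -1.61 to 1.27, and no list shown has all 3 points as high as those of Areg. Single markers of a list can differ from its sum, and the part of these cell types in the Areg values was not tested.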

How the data were processed

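Cy3-labelled total RNA of whole lung was read on 6 Agilent 1-colour arrays. Agilent Feature Extraction 10.7.3.1, on a design annotated on mm9, gave the intensity of each spot, per the file headers; the processed signal deposited by the authors had background subtracted and spatial trends removed within each array. A deposited table of centred log2 values, whose centring value is unknown, matched the processed signal in its HRF minus PBS differences (r across probes from 0.997 to 0.998, slope 1.00). The median of its WT PBS column was 0.1, and that of every other column 0.

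The level was the processed signal divided by its 75th percentile on the array, in log2. Control and outlier spots were left out and copies of a probe averaged. Of 55681 probes, 26056 were named through RefSeq accessions (GRCm38.p6), and the probe with the highest mean stood for a gene. Genes were compared when well above background on at least 1 array of a pair; a dim side was raised to the lowest signal well above background. All 8 members were well above background on all arrays. limma 3.58.1 in R 4.3.3 was fitted with genotype label plus challenge (2 residual degrees of freedom, Benjamini-Hochberg 0.05). The fit was also run on simulated data with planted changes and no differences between labels. The outcome of that run is not reported here, and no result rests on it. Python 3.11.15 did the rest.

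The members and the 23 gene lists were chosen with earlier results of these data known. Named were all members and ErbB family genes, up to 4 genes per pathway list by mean ratio, up to 3 per cell type list, and 5 genes most like Areg. Fos, Egr1, Adam17, Adam9, Stat3, Il5, Foxp3, Lrrc32, Hdc, Kit, Cpa3, Cma1, Tpsb2, Mcpt2, Ms4a2, Mcpt8 and Ucp1 were named for their roles or values after these were seen. Alternatives were normexp on median spot and background signals (offset 50) with quantile normalization, the deposited table, scaling on the median, other filters on dim probes, the median over probes, a 1.5-fold threshold and leaving out a label.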

Additional observations from a re-analysis of the deposited data

How the results depend on the processing

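Of 144 ratios of members under 6 alternatives, 69 could not move, since every member was well above background on all arrays and Egfr alone has several probes. The other 75 moved by less than 1.5-fold. With the median over probes, Egfr went from 0.55 to -0.0041 in WT and from -0.34 to 0.013 under the FceRIa KO label. In the deposited table, Egf and Btc went to 0 under the FceRIa KO label, from 0.053 and -0.062. Since Areg, Ereg and Nrg1 lie near 2-fold, counts of members past it did move. In WT 2 passed with scaling on the median (Areg and Ereg), which raised the median ratio of all genes from -0.05 to 0.17, and 3 passed at 1.5-fold. Under the FcRg KO label 0 passed with normexp or scaling on the median and 2 at 1.5-fold. Under the FceRIa KO label 0 passed with normexp and 2 at 1.5-fold. The number of all genes past 2-fold, 669 in WT, was 338 with normexp, 1035 with the deposited table and 1462 with no filter on dim probes. For the FcRg KO label, 322 became 106, 525 and 991, and for the FceRIa KO label 315 became 135, 509 and 893. With normexp, the deposited table and no filter, a dim side was also not raised to the lowest signal well above background. No filter adds dim genes as well. How much each of these steps moved the counts was not tested. limma called 0 genes under each of its alternatives, with between 832 and 1979 at an unadjusted p under 0.05. The genotype term of the limma fit already pairs the PBS and HRF array of each label, and with 1 array per group no further block could be fitted. Dim probes, such as that of Ereg, are limited by signal over background.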
